A study of Mus musculus with 12 samples.

Results

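A set of 8 Wnt ligand genes (Wnt8a, Wnt3, Wnt5a, Wnt5b, Wnt11, Wnt6, Wnt7b and Wnt4) and the secretion genes Porcn and Wls was followed across a microarray series on mouse epiblast stem cells (EpiSCs). They were taken by name, with earlier results of these data known. Each was read as the probe annotated to that gene alone, with the highest-mean probe standing for a gene with more than 1. All 10 were measured, out of 19938 genes in the table. The cells, of genetic background 129, were kept for 12 h in medium without serum, although a serum content of 10% is recorded for every sample. They fell into 4 groups of 3 arrays: untreated cells, cells given CHIR99021 at 3 µM for 2 h, cells given XAV939 at 2 µM, and cells given both compounds. For XAV939 the sample labels give 2 h and the design text gives 4 h, and the sources do not settle the time. No label tells whether the replicates of a group were separate cultures, and the p-values therefore cover the spread among these samples only, which can be technical. CHIR99021 inhibits GSK3, which stabilises beta-catenin, and XAV939 inhibits tankyrase, which stabilises Axin and lowers beta-catenin. The series asked which genes respond to these compounds.

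Wnt proteins are secreted ligands that carry a lipid. Porcn, an enzyme of the endoplasmic reticulum, attaches that lipid, and Wls, a membrane carrier, takes the lipidated ligand to the cell surface. Wnt3 and Wnt8a are known from the mouse embryo around the start of gastrulation, where they signal through beta-catenin. Wnt5a, Wnt5b and Wnt11 are best known for signalling that does not use beta-catenin, and Wnt4, Wnt6 and Wnt7b for roles in later organs and epithelia.

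Levels are deposited log2 expression values per probe, the base of the logarithm having been judged from the range of values. A change is a difference between group means on this log2 scale, with the standard error (SE) of the limma fit, and a gene is called where its adjusted p lies under 0.05 over all 19938 genes. All 13 primed epiblast markers examined, Pou5f1, Sox2 and Otx2 among them, lay above a background measure of 4.94, below which lay 95% of 1194 genes of olfactory and vomeronasal receptors by their mean, whereas 5 of 9 naive pluripotency markers, Zfp42 and Esrrb among them, lay below it. The summed level of the naive markers on the log2 scale was 8.13 to 8.17 untreated, 8.09 to 8.21 with XAV939, 8.26 to 8.38 with CHIR99021 and 8.24 to 8.29 with both. Of 10 fibroblast markers 3 lay above background (Col1a1, Col1a2 and Thy1), and their list summed to 8.56 to 8.61 with CHIR99021 against 8.69 to 8.73 untreated, 8.65 to 8.73 with XAV939 and 8.67 to 8.72 with both. Of 6 mesoderm markers 1, Msgn1, lay above background, and their list summed to 6.99 to 7.07 with XAV939 and 6.94 to 7.12 with both, against 7.16 to 7.19 untreated and 7.08 to 7.16 with CHIR99021. The primed epiblast list summed to 14.18 to 14.25 with XAV939 against 14.12 to 14.17 untreated, 14.14 to 14.196 with CHIR99021 and 14.15 to 14.18 with both. The sums of 8 endoderm markers (4 above background) ran from 8.09 to 8.29 and those of 5 measured early neural markers (all above background) from 7.51 to 7.81, with untreated arrays overlapping each treated group. Over 6 arrays with CHIR99021 against 6 without, the naive markers Tbx3 (0.40, limma adjusted p = 0.013) and Klf2 (0.21, limma adjusted p = 0.038) rose. The neural marker Pax6 fell there (-0.25, limma adjusted p = 0.0336), and 1.59% of all genes were called. No marker was called with CHIR99021 alone, where 0.421% of all genes were. In these bulk samples fewer cells of a type and less RNA per cell cannot be told apart, and the part of these shifts in the results was not tested. The arrays also varied in the spread of their values, with the lowest standard deviation, 2.14, on untreated replicate 3 and on XAV939 replicate 2 and the highest, 2.21, on replicate 3 of both compounds.

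Among the 8 ligands, Wnt8a, Wnt3, Wnt5b and Wnt4 had a mean over the 12 arrays above the background measure, at 8.17, 5.12, 5.19 and 5.40. Wnt5a (4.66), Wnt11 (4.51), Wnt6 (4.33) and Wnt7b (4.33) lay below it, so their differences rest on dim signals. Porcn (6.71) and Wls (8.001) lay above it. These levels place each probe against background and do not rank genes against each other.

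Promoter sequence from RefSeq, build GRCm38.p6, covering 250 bases before to 50 bases after a gene's start, was matched by symbol for 6 members with 9 start sites: Wnt3, Wnt5b, Wnt11, Wnt6, Wnt4 and Wls. In these windows 4 forms, of 7 bases each, of the core recognised by the TCF/LEF factors, the DNA-binding partners of beta-catenin, were searched on both strands. These were CTTTGAA or CTTTGAT, and in addition CTTTGTA or CTTTGTT. At least 1 of these 4 forms was present in 3 of the 9 member windows and in 16.9% of all 32851 windows. The stretches around the core of Wnt5b and Wnt11 are shown because these are the member windows with the core before the start; neither ligand had a called change. Capitals mark the core, which reads CTTTGAT on the gene's strand in Wnt5b, at bases -71 to -65 from the start, and on the opposite strand in Wnt11, at -51 to -45. The Wnt5b stretch lies at chr6:119449424-119449484 on the minus strand, before 1 of the gene's 3 listed starts, and the Wnt11 stretch at chr7:98835034-98835094 on the plus strand.
Wnt5b: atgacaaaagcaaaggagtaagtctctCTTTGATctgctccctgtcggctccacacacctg
Wnt11: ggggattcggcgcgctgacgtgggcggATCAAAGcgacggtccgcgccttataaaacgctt
The core in the Wnt3 window, CTTTGTT, lies after the start, at bases 18 to 24. A match of letters is a description and not a binding site.

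Wnt8a had the largest change of the 10 genes after CHIR99021. Its values were 7.95, 7.95 and 7.805 on the untreated arrays and 8.61, 8.60 and 8.65 with CHIR99021. With XAV939 they were 7.77, 7.67 and 7.799, and with both compounds 8.45, 8.29 and 8.497. Every array with CHIR99021 lay above every array without it, whether or not XAV939 was present. Such a lack of overlap, with either sign, held for 1.63% of all genes. Wnt8a rose by 0.72 (SE 0.08) with CHIR99021 alone, a 1.65-fold increase (limma adjusted p = 0.000179), and by 0.66 (SE 0.08) with XAV939 present, a 1.58-fold increase (limma adjusted p = 0.000793). These comparisons share no array. With both compounds against untreated cells it rose by 0.51 (SE 0.08, limma adjusted p = 0.00954). That last call ended without untreated replicate 3 (change 0.46, adjusted p = 0.0572), and it also ended with array standard deviation as a covariate (0.42, adjusted p = 0.0637) and with untreated replicate 3 and replicate 2 of XAV939 both left out (adjusted p = 0.0601).

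**Figure D1:**
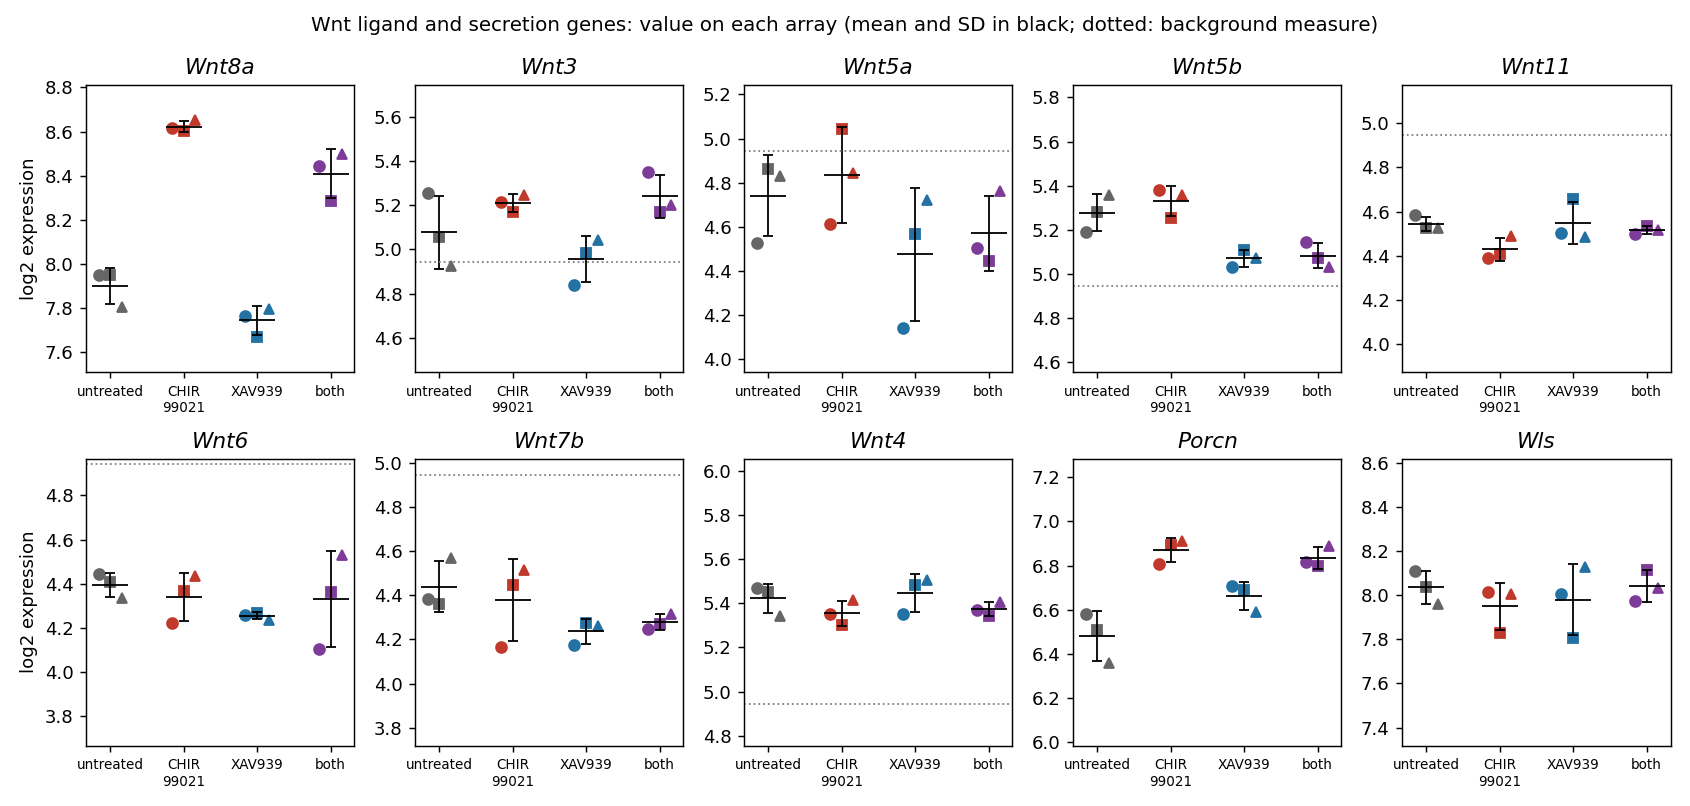
Log2 expression of the 10 genes on each array, by group (circle, square and triangle stand for replicates 1, 2 and 3; black bars are the mean and SD, n = 3; the dotted line is the background measure of 4.94). Each panel spans the same range of log2 units, and Wnt8a and Porcn are the genes whose arrays with CHIR99021 all lie above those without it.

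The levels of Wnt8a fell in the order CHIR99021 (8.62 ± 0.03, SD, n = 3), both compounds (8.41 ± 0.11), untreated (7.90 ± 0.08) and XAV939 (7.75 ± 0.07). Neighbours in this order did not overlap on any array. Groups of 3 arrays often separate in this way, as 17.6% of all genes did for XAV939 against untreated. Only the step between both compounds and untreated passed the test, however. The change was -0.21 (95% interval -0.38 to -0.05) for both compounds against CHIR99021 (limma adjusted p = 0.338), and -0.16 (-0.32 to 0.01) for XAV939 against untreated (limma adjusted p = 0.462). Over 6 arrays with XAV939 against 6 without, Wnt8a differed by -0.18 (SE 0.05), short of the threshold (limma adjusted p = 0.116). The interaction (the CHIR99021 change in cells with XAV939 less the change in cells without) was -0.06 (95% interval -0.29 to 0.17, limma adjusted p = 0.984).

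The gene for the lipid-attaching enzyme, Porcn, also rose with CHIR99021. Its values were 6.58, 6.51 and 6.36 untreated and 6.81, 6.89 and 6.91 with CHIR99021. They were 6.71, 6.69 and 6.59 with XAV939 and 6.82, 6.80 and 6.89 with both. The untreated arrays were the lowest 3 of the 12, and the arrays with XAV939 alone lay between them and the arrays with CHIR99021. Porcn rose by 0.39 (SE 0.08) with CHIR99021 alone, 1.31-fold (limma adjusted p = 0.0323), and by 0.35 (SE 0.08) with both compounds against untreated (limma adjusted p = 0.0382). The groups also did not overlap for XAV939 against untreated (0.18, 95% interval 0.02 to 0.34, limma adjusted p = 0.399), as for 17.6% of all genes. Nor did they for both against XAV939 (0.17, 95% interval 0.01 to 0.33, limma adjusted p = 0.478), but neither difference passed. The interaction was -0.22 (95% interval -0.44 to 0.01, limma adjusted p = 0.965), so a CHIR99021 change of different size with and without XAV939 was not shown.

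Single arrays decided the Porcn calls against untreated cells. The call with CHIR99021 alone ended without untreated replicates 2 or 3 (adjusted p = 0.0933 and 0.195) and without CHIR99021 replicates 1, 2 or 3 (adjusted p = 0.064, 0.13 and 0.124), with changes between 0.33 and 0.42. It also ended in a fit to these groups alone (adjusted p = 0.0999) and with untreated replicate 3 and replicate 2 of XAV939 both left out (0.177). The call with both compounds ended without untreated replicates 2 or 3 (adjusted p = 0.0986 and 0.166), XAV939 replicate 1 (0.0513), or replicates 1, 2 or 3 of both compounds (0.0717, 0.0999 and 0.104). It also ended after quantile normalization (change 0.31, adjusted p = 0.0768) and cyclic loess (0.29, adjusted p = 0.087), in a fit to these groups alone (0.0778), with array standard deviation as a covariate (0.148) and without those 2 arrays together (0.149). Over all 12 arrays, as 6 with CHIR99021 against 6 without, Porcn rose by 0.28 (SE 0.05, limma adjusted p = 0.0125) with no overlap between the arrays, and this call was kept without each of the 12 arrays in turn (highest adjusted p = 0.0367). It ended with array standard deviation as a covariate (0.25, adjusted p = 0.0658).

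Wls, the carrier that acts after Porcn, had no called change. Its values ran from 7.96 to 8.11 untreated, 7.83 to 8.02 with CHIR99021, 7.81 to 8.13 with XAV939 and 7.97 to 8.11 with both, so all 4 groups overlapped. With CHIR99021 alone its difference was -0.09 (95% interval -0.27 to 0.10), and over 6 arrays against 6 it was -0.01 (-0.15 to 0.12, limma adjusted p = 0.96).

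**Figure D2:**
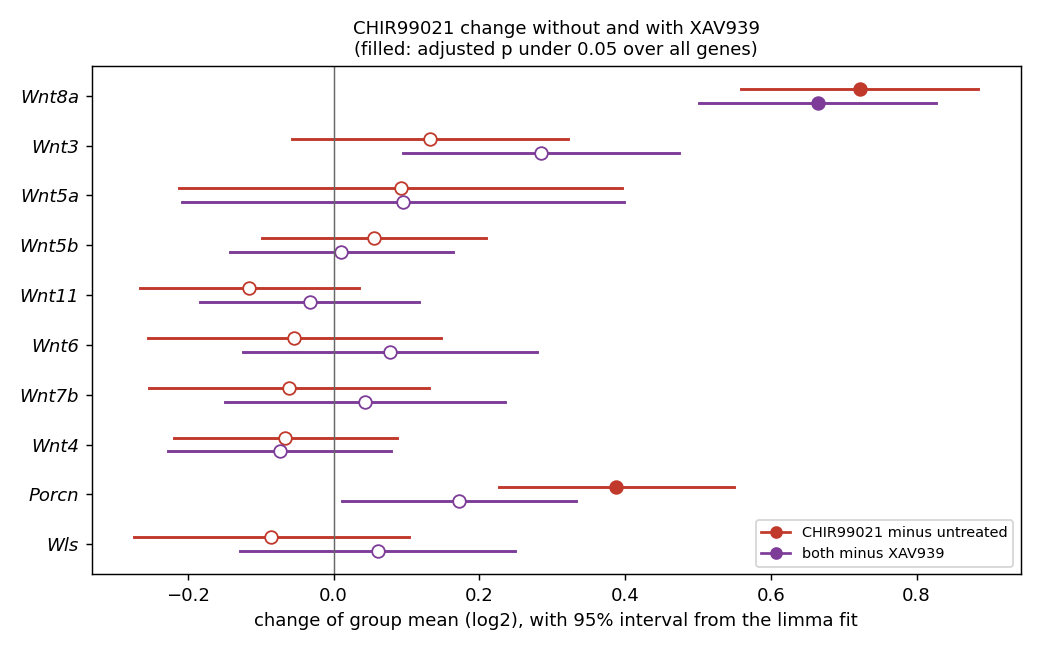
Change of the group mean with CHIR99021 in log2 units (x axis) for each gene, without XAV939 (red, CHIR99021 minus untreated) and with it (purple, both minus XAV939); lines are 95% intervals and filled points were called over all genes. Wnt8a lies at 0.72 and 0.66, Porcn is called only without XAV939, and the intervals of the other 8 genes without XAV939 include 0.

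Wnt3, the other ligand of early gastrulation among the 8, differed in the direction of Wnt8a but was not called. Its values were 5.25, 5.06 and 4.93 untreated and 5.22, 5.17 and 5.25 with CHIR99021. With XAV939 they were 4.84, 4.98 and 5.04, and with both compounds 5.35, 5.17 and 5.201. Untreated replicate 1 lay among the arrays with CHIR99021, while the arrays with both compounds all lay above those with XAV939 alone. The mean of 5.12 lay close to the background measure of 4.94, and untreated replicate 3 and XAV939 replicate 1 lay below it. The differences were 0.13 (95% interval -0.06 to 0.32, limma adjusted p = 0.656) with CHIR99021 alone and 0.28 (0.10 to 0.47, limma adjusted p = 0.283) with XAV939 present. Over 6 arrays against 6 the difference was 0.21 (SE 0.06), and it did not pass over all genes (limma adjusted p = 0.122). Wnt9b, whose gene overlaps Wnt3 in the RefSeq table, had a difference of -0.04 in the same comparison.

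Of the ligands best known for signalling without beta-catenin, Wnt5b had lower values with XAV939. Its values were 5.19, 5.28 and 5.36 untreated and 5.38, 5.26 and 5.36 with CHIR99021. With XAV939 they were 5.03, 5.11 and 5.07, and with both compounds 5.14, 5.07 and 5.03. All 6 arrays with XAV939 lay below all 6 without it, which held for no other of the 10 genes and for 1.52% of all genes with either sign. Over these 6 against 6 arrays Wnt5b had a difference of -0.23 (SE 0.05), 0.854-fold, which did not pass over all genes (limma adjusted p = 0.0617). The differences were -0.21 (95% interval -0.36 to -0.05, limma adjusted p = 0.323) for XAV939 against untreated and -0.25 (-0.40 to -0.10, limma adjusted p = 0.266) for both compounds against CHIR99021. The values lay close to the background measure. Over 6 arrays with XAV939 against 6 without, the protein-coding gene Fbxl14, which overlaps Wnt5b in the RefSeq table, had a difference of 0.03.

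Wnt5a and Wnt11 were not called and lay below background. The replicates of Wnt5a had SDs up to 0.30, the largest of the 10 genes, with values of 4.14, 4.57 and 4.72 on the XAV939 arrays, and its difference over 6 arrays with XAV939 against 6 without was -0.26 (95% interval -0.48 to -0.05, limma adjusted p = 0.201). Wnt11 ran from 4.39 to 4.49 with CHIR99021, below the untreated range of 4.52 to 4.58, a lack of overlap found for 16.3% of all genes. Its difference was -0.12 (95% interval -0.27 to 0.03, limma adjusted p = 0.614). Wnt5a had a difference of 0.09 (-0.21 to 0.40) in that comparison.

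The ligands of later organs were not called either. Wnt4 had values from 5.34 to 5.47 untreated and 5.302 to 5.41 with CHIR99021, and its difference over 6 arrays against 6 was -0.07 (95% interval -0.18 to 0.04). Its dimmer probe, at a mean of 4.66, had a difference of -0.06 there. Over 6 arrays with XAV939 against 6 without, the signs differed, with 0.02 for the brighter probe and -0.13 for the dimmer. Neither passed. Wnt6 ran from 4.10 to 4.53 and Wnt7b from 4.17 to 4.57 over the 12 arrays. For XAV939 against untreated the groups of both genes did not overlap, as for 17.6% of all genes. Their differences there were -0.14 (limma adjusted p = 0.586) and -0.20 (limma adjusted p = 0.426). With CHIR99021 over 6 arrays against 6 the differences were 0.01 and -0.01.

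**Figure D3:**
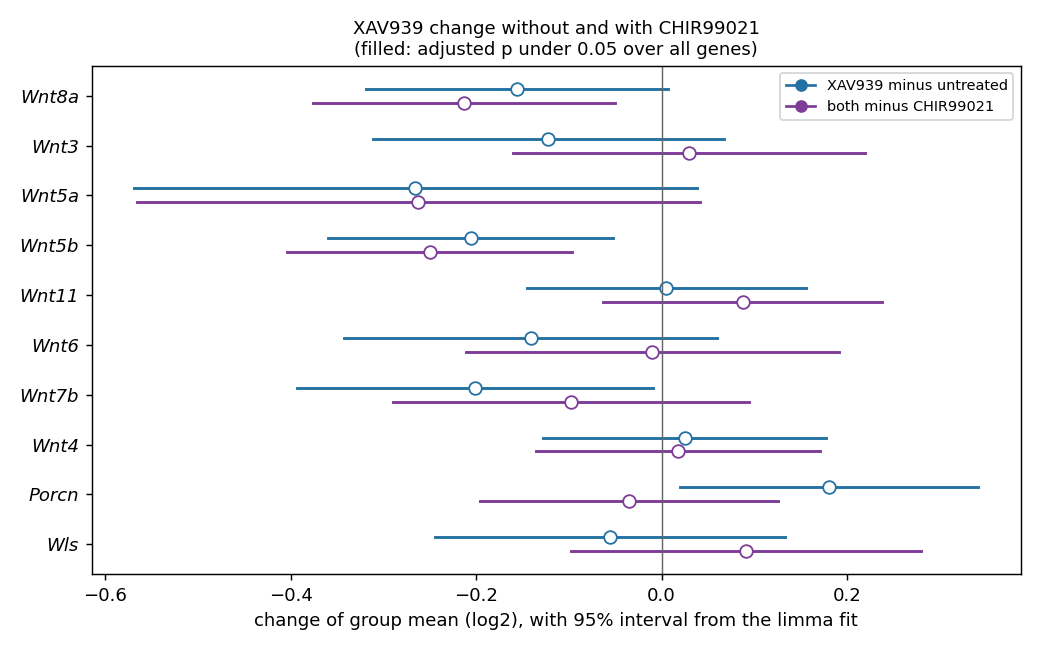
Change of the group mean with XAV939 in log2 units (x axis) for each gene, without CHIR99021 (blue, XAV939 minus untreated) and with it (purple, both minus CHIR99021); lines are 95% intervals. No point is filled, since none was called; Wnt5b lies at -0.21 and -0.25.

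Against the background of all genes, CHIR99021 alone gave 2 called members of 10, both higher, where 0.421% of the 19938 genes were called. The median change of the 10 was 0.00 against -0.01 over all genes. With XAV939 present 1 member, Wnt8a, was called (0.236% of genes), with both compounds against untreated 2 were (1.13%), and over 6 arrays with CHIR99021 against 6 without 2 were (1.59%). Groups did not overlap for 3 of the 10 members with CHIR99021 alone (2 above and 1 below), against 16.3% of all genes. For the 6 against 6 arrays this held for 2 of 10, Wnt8a and Porcn, against 1.63%. The members were chosen with earlier results of these data known, so their counts beside these shares test no enrichment.

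XAV939 gave no called member. For XAV939 against untreated limma called 0 of 10 members and 0% of all genes, and at an unadjusted p under 0.05 it found 3 members (Wnt5b, Wnt7b and Porcn) and 11.2% of genes. Groups did not overlap for 5 of the 10, 4 below and 1 above, against 17.6% of all genes. The median change of the members was -0.13 against 0.00 over all genes. A like shift, with a median of -0.09, was seen in the 11 other Wnt ligand genes, of which 1 lay above background. Over 6 arrays with XAV939 against 6 without, the median of those 11 was -0.09, against -0.06 for the members. For both compounds against CHIR99021 limma called 0 members, where 0.0251% of genes were called, and found 2 (Wnt8a and Wnt5b) at an unadjusted p under 0.05, where 11% of genes lay. For 6 arrays with XAV939 against 6 without it called 0 members, where 0.331% of genes were called, and found 4 (Wnt8a, Wnt5a, Wnt5b and Wnt7b) at an unadjusted p under 0.05, where 16.9% of genes lay. The interaction had 0 calls among the members, 0% of all genes called, and 0 members at an unadjusted p under 0.05, where 4.94% of genes lay. These comparisons share arrays with each other and with those of CHIR99021.

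The other 11 mouse Wnt ligand genes were all measured, and only Wnt9b had a mean above the background measure. None was called in any of the 8 comparisons, where the share of all genes called was at most 1.59%. At an unadjusted p under 0.05 limma found none of them in any, where 11.2% of all genes lay for XAV939 against untreated. With CHIR99021 alone their changes ran from -0.09 (Wnt1) to 0.09 (Wnt8b), with Wnt16 at 0.07 and Wnt2 at -0.06, around a median of -0.03. Over 6 arrays with CHIR99021 against 6 without, Wnt10b had -0.09, Wnt8b 0.09, Wnt9a 0.07 and Wnt2 -0.05.

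Of 19 genes of Wnt trafficking and secretion, such as the retromer that returns Wls to the Golgi and the Tmed cargo receptors, none was called with either compound. Of all genes, 0.421% were called with CHIR99021 alone and 1.59% over 6 arrays with it against 6 without. For 6 arrays with XAV939 against 6 without the share was 0.331%. All 19 trafficking genes lay above background. Their median change over 6 arrays with CHIR99021 against 6 without was 0.05 against 0.00 for all genes. Vps26a, a retromer subunit, had the largest difference, 0.29 (SE 0.08, limma adjusted p = 0.0763). Tmed9 had 0.15, Ykt6, a SNARE protein of vesicle fusion, 0.12, and Tmed2 0.11, and Tmed4 had 0.18 with CHIR99021 alone.

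Of 21 secreted Wnt inhibitors and carriers, 1 rose with CHIR99021. Of all genes, 0.421% were called with CHIR99021 alone and 1.59% over 6 arrays with it against 6 without. Dkk1, an antagonist that binds the co-receptors Lrp5 and Lrp6, rose by 0.37 (SE 0.08, limma adjusted p = 0.0473) with CHIR99021 alone and by 0.27 (SE 0.05, limma adjusted p = 0.015) over 6 arrays against 6, although its mean of 4.74 lay below the background measure. With XAV939 present its CHIR99021 difference was 0.18 (limma adjusted p = 0.462), and both compounds against untreated gave 0.02 (limma adjusted p = 0.917). The interaction for Dkk1 was -0.19 (limma adjusted p = 0.965). The first call ended without any 1 of 11 of the 12 arrays, the exception being CHIR99021 replicate 3 (adjusted p up to 0.182), and the second was kept without each array in turn (highest adjusted p = 0.0438). Frzb, another secreted antagonist, had differences of 0.39 (limma adjusted p = 0.105) and 0.22 in these comparisons. Sostdc1 had -0.35 (limma adjusted p = 0.114) and -0.25, Sfrp2 had -0.17 with CHIR99021 alone and Draxin -0.15 over 6 arrays against 6, none of which passed. The list's median change over 6 against 6 was -0.01, and 9 of the 21 lay above background.

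**Figure D4:**
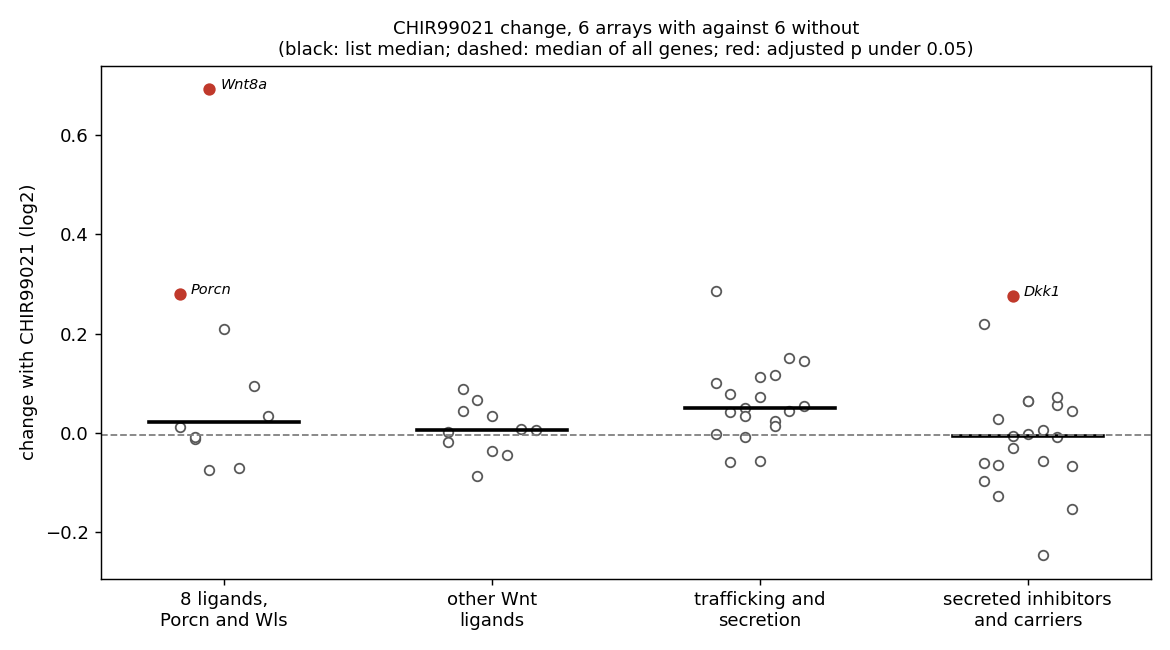
CHIR99021 change in log2 units (y axis), 6 arrays with against 6 without, for the 10 genes and for the 11 other Wnt ligands, 19 trafficking and secretion genes and 21 secreted inhibitors and carriers (1 point per gene). Black bars are list medians, the dashed line is the median of all genes, and the red, named points (Wnt8a, Porcn and Dkk1) were called.

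Among the 11594 genes above the background measure, those whose values followed Wnt8a most closely over the 12 arrays were Nodal (Pearson's r = 0.986), Fst (0.984), Zeb2 (0.97), Epha4 (0.965) and Lgr5 (0.963). Nodal is a TGF-beta family ligand, Fst encodes the activin antagonist follistatin, Zeb2 is a transcriptional repressor, Epha4 an ephrin receptor and Lgr5 a receptor for R-spondins. All 5 shared the arrays and group structure of Wnt8a, so r describes these 12 arrays and carries no p. Side by side, Wnt8a had CHIR99021 changes of 0.72 alone and 0.66 with XAV939, Zeb2 0.75 and 0.64, Epha4 0.77 and 0.62, and Lgr5 0.49 and 0.31. Nodal, at 1.76 and 1.49, and Fst, at 1.81 and 1.68, had larger changes. With XAV939 alone Nodal had -0.47 and Fst -0.53, against -0.16 for Wnt8a. A reference list of 6 Wnt response genes (Axin2, Nodal, Fst, Sp5, Znrf3 and Gbx2) was picked with these results known. All 6 rose with CHIR99021 alone, by 0.62 (Znrf3) to 1.81 (Fst), where 0.421% of all genes were called. They followed Wnt8a with r from 0.868 (Sp5) to 0.986 (Nodal), with Znrf3 at 0.884, Axin2 at 0.95 and Gbx2 at 0.96. Sp5 had a mean of 4.66, below the background measure. Over 6 arrays with XAV939 against 6 without, 4 of the 6 fell, where 0.331% of all genes were called. Sp5 had -0.43 there (limma adjusted p = 0.0569) and Znrf3 0.10 (limma adjusted p = 0.435). For Wnt3, which was not called, the closest genes were Vmp1 (r = 0.894), Acbd3 (0.887) and Dipk1a (0.884). They are the highest of 11594 correlations over 12 arrays and carry no p either.

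**Figure D5:**
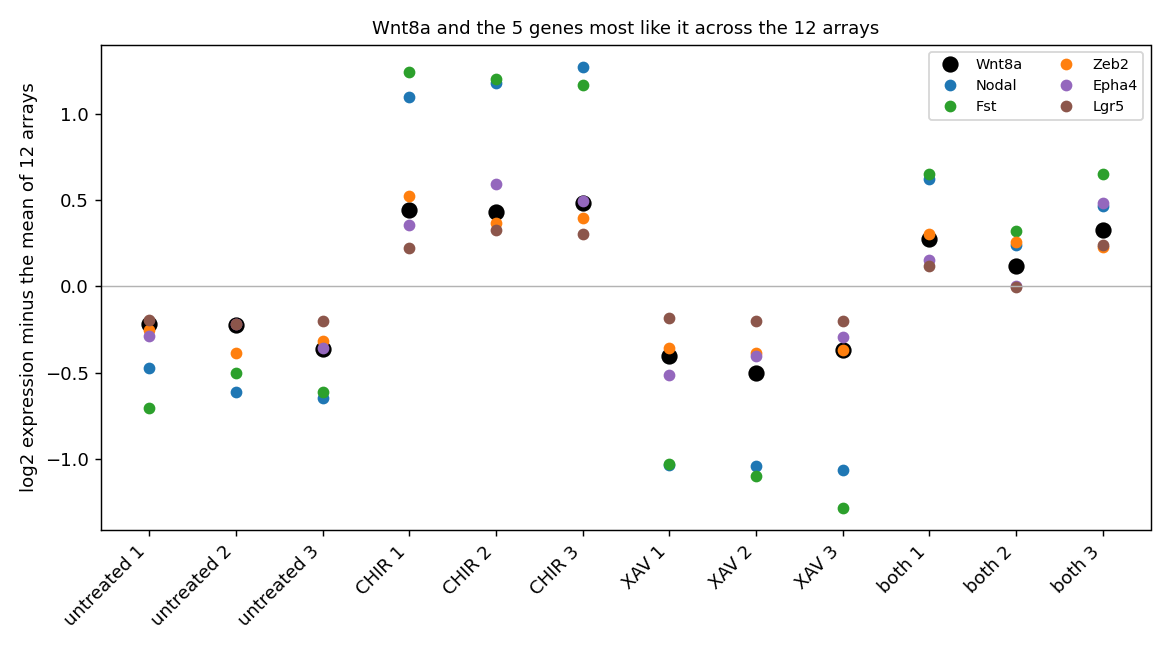
Log2 expression minus the mean over 12 arrays (y axis) for Wnt8a (large black points) and the 5 genes most like it, on each array (x axis, by group and replicate; replicates have no order). All 6 genes lie below their own mean on the untreated and XAV939 arrays, and above or close to it on the arrays with CHIR99021.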

How the data were processed

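The 12 samples were hybridised to 1-colour Affymetrix arrays after biotin labelling, per the labels' protocols. Each probe has 1 value per array in the table the authors deposited, taken here as log2 because all values lay between 2.52 and 14.3. The submitters' processing notes name Partek. How background was corrected and arrays were normalized is not given in the sources used here. The medians of the arrays lay between 5.22 and 5.27, and no further normalization was applied. Of 35399 probes, 21789 had 1 gene symbol, 1621 several and 11989 none listed. Symbols were updated through the RefSeq table of GRCm38.p6 (91 probes unmatched), leaving 19938 genes, 999 of them with more than 1 probe. Arrays have no read depth; their number limits the precision.

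The means of the 4 groups were estimated together from the 12 arrays by limma 3.58.1, run in R 4.3.3 (lmFit, eBayes, two-sided; 8 residual and 8.03 prior degrees of freedom), with Benjamini-Hochberg adjustment over genes within each of 8 comparisons. In simulated data 200 of 19938 genes were changed. The CHIR99021 comparison recovered 68% of changes of 0.5 and 99% of changes of 1, and the 6 against 6 comparison 94% and 97%. The simulated noise was normal and independent between genes and arrays, without differences in spread between arrays. Changes smaller than 0.5, such as those of Porcn, were not simulated. The members, lists and tests were chosen with earlier results of these data known. All members were named, and list genes where called or among the 4 with the smallest p in a CHIR99021 comparison; 6 Wnt response genes served as a scale. Alternatives were normalization, filters, probe rules, variance models, array weights, covariates, a replicate block, a fold threshold and leaving out arrays. Figures used matplotlib 3.10.9 in Python 3.11.15.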

Additional observations from a re-analysis of the deposited data

How the results depend on the processing

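Over the 10 members, 8 comparisons and up to 27 alternatives, 2026 changes were recomputed: no called change turned its sign, 31 calls ended, 3 were gained, and 87 changes that passed in neither fit turned their sign. The number of members called with CHIR99021 alone (2) was 1 in the fit to the groups compared, 1 when untreated replicate 3 and XAV939 replicate 2 were both left out, 1 with the replicate block and 0 at a fold of at least 1.5, and ran from 1 to 2 without single arrays. For both compounds against untreated (2) it was 1 with quantile normalization, cyclic loess, the groups compared and the replicate block, 0 with array standard deviation as a covariate, without the same 2 arrays together and at the fold of 1.5, and ran from 0 to 2 without single arrays. At that fold it was also 0 for both against XAV939 (1) and for 6 arrays with CHIR99021 against 6 without (2), and in the latter 1 with the covariate. For 6 arrays with XAV939 against 6 without (0) it was 1, Wnt5b, with filters at the 25th percentile and at background and with array weights (adjusted p = 0.0468, 0.0414 and 0.0353). The fold setting tests whether a change is larger than 1.5-fold and is not a cut-off on the estimated fold. The Wnt8a calls with CHIR99021 alone, with XAV939 present and over 6 against 6 arrays were lost only in that test. Their estimated folds were 1.65, 1.58 and 1.62. The Dkk1 check used the same alternatives and was chosen after seeing the data; its 6 against 6 call ended without the same 2 arrays together (adjusted p = 0.0598) and at the fold of 1.5.

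Replicate numbers showed no general pairing of the arrays. Deviations of same-numbered arrays correlated between -0.25 and 0.20, over 0.1 in 6 of 18 pairs, and 4 of 12 arrays correlated best with their own number. Between XAV939 and both compounds the correlations were 0.09, 0.16 and 0.10 for replicates 1, 2 and 3. With the replicate block the Porcn calls against untreated ended (adjusted p = 0.0553 with CHIR99021 and 0.0563 with both). Counts over all genes moved by over 1.5 times: over all alternatives that with CHIR99021 alone (84) ran from 2 to 119, with both compounds against untreated (225) from 0 to 550, both against XAV939 (47) from 2 to 70, both against CHIR99021 (5) from 0 to 10, 6 against 6 with CHIR99021 (318) from 2 to 429 and with XAV939 (66) from 0 to 255. XAV939 against untreated (0) reached 8 and the interaction (0) reached 1. These ranges include the test for a change larger than 1.5-fold. Without single arrays the count ran from 34 to 97 with CHIR99021 alone and from 10 to 284 with both compounds against untreated. For 6 against 6 arrays it then ran from 211 to 271 with CHIR99021 and from 2 to 66 with XAV939. Ligands below the background measure limit what these arrays can show, and no group of 3 was tested for outlying arrays.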
